A study of Drosophila melanogaster with 24 samples.

Results

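The difference between tinmDPE and tinWT embryos collected at 4 to 8 h was described across the promoters of Drosophila melanogaster genes. The assay, csRNA-seq, selects short RNAs that carry a cap, so that their 5′ ends mark transcription start sites (TSSs) of RNA polymerase II. Of the 45839 TSSs in the authors' merged list, 18098 were classed as promoter TSSs of 10710 genes. One promoter TSS was kept per gene, that of highest mean value over the 6 libraries of 4-6 and 6-8 h, and 6492 of the 10710 genes had a mean of at least 4 on the authors' regularized log2 (rlog) scale. These 6492 TSSs, 6274 of protein-coding genes and 218 of noncoding RNA genes, are called members. The minimum fell between prg, at 4.00 just under it, and Pi3K59F, at 4.00 just over it, and the other 4218 genes lay below.

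The 2 tinWT libraries were whole embryos of the strain Cas9, 1 from each window. The 4 tinmDPE libraries were whole embryos of the strains F3 and M6, each with 1 library per window. All embryos were kept at 25 °C, no treatment is named, and tinmDPE is taken to stand for a mutated downstream core promoter element (DPE) in the gene tinman. The labels give neither the promoter of a transgene in the strain named Cas9 nor whether F3 and M6 carry one, and tags from a transgene copy of a promoter would be counted at the gene's own TSS. Because tinWT was 1 strain, a difference between genotypes cannot be told apart from a difference between strains, and nothing says that the windows of a strain came from separate crosses. The p-values therefore measure only the spread between these libraries. The 6 libraries held 3413876 to 10553406 tags. The fewest were in Cas9 at 4-6 h, where F3 held 5137015 and M6 6616015. At 6-8 h Cas9 held 7086530, F3 6705989 and M6 the most.

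A core promoter is the stretch around a start site that the general transcription machinery recognises. In flies many developmental promoters lack a TATA box and use an initiator at the start together with a DPE placed downstream at a fixed distance. Tinman (tin) encodes an NK homeobox factor that specifies the dorsal mesoderm, from which the heart and the gut muscle arise, and between 4 and 8 h of development its expression narrows from the whole mesoderm to those dorsal cells. The promoters on which the results turn are shown first, from the reference genome (RefSeq Release 6, the assembly of dm6), from 40 bases before to 40 bases after the start on the gene's strand. Capitals mark an initiator (TCAGT or TCATT with its A within 5 bp of the start) and a DPE (a word of 4 letters, namely a purine, G, A or T, and a pyrimidine, beginning at position 28 with the A of the initiator as position 1). The promoter of tin is shown because it carries the targeted element, vas and LanB1 because theirs were among the largest negative differences, and frm because its difference was the largest.
tin, chr3R:21378939-21379019, plus strand: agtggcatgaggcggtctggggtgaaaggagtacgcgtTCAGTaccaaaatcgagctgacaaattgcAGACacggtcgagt
vas, chr2L:15061640-15061720, plus strand: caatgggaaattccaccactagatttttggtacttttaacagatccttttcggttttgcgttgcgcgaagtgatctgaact
LanB1, chr2L:7811400-7811480, plus strand: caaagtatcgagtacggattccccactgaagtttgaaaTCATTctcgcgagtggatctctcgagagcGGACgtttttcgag
frm, chr3L:5551111-5551191, minus strand: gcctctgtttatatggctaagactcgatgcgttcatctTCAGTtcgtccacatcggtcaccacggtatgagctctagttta
The reference tin promoter holds both elements, as does that of LanB1. The frm promoter holds the initiator alone. In the vas window no initiator was found within 5 bp of the start, and no DPE word began at position 28 from the start.

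The targeted gene tin had lower values in all 4 tinmDPE libraries than in the tinWT library of the same window. Its promoter TSS lies on chr3R:21378850-21379054, plus strand, in the first exon and 5′ untranslated region (FBgn0004110). At 4-6 h the rlog value was 7.06 in Cas9, 6.37 in F3 and 6.24 in M6. At 6-8 h it was 7.45 in Cas9, 7.12 in F3 and 6.96 in M6. Within each window the groups did not overlap, while the Cas9 value at 4-6 h lay between the tinmDPE values of the later window. The mean difference was -0.58 (SD 0.24 over 2 windows), or 1.5-fold lower. An exact permutation of the strain labels within windows, 2-sided, gave p = 0.111 for these 6 libraries, which is the smallest value that its 9 assignments allow. In limma's fit over all 45839 TSSs the difference had an SE of 0.16 and an adjusted p of 0.245. A lower difference than that of tin was found in 773 members, 11.9% of them.

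Few promoters passed the test over all TSSs. With the window as block, 10 of the 45839 TSSs had an adjusted p under 0.05 (0.0218%; limma, Benjamini-Hochberg), 5 higher and 5 lower in tinmDPE, and 3 of the 10 were members. At an unadjusted p under 0.05 there were 5747 TSSs, of which 2136 were members. Leaving out any 1 of the 4 tinmDPE libraries gave 0 calls, leaving out Cas9 at 4-6 h gave 127 and leaving out Cas9 at 6-8 h gave 318. The outcome also depended on which TSSs were fitted. When only the 9254 TSSs with a mean of at least 4 were fitted and adjusted over, which also moved the prior degrees of freedom of the variance from 3.19 to 6.55, 1417 were called (15.3%), among them 1080 members, 564 higher (8.69%) and 516 lower (7.95%).

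The first of the 3 members past the threshold is vas, which encodes a DEAD-box RNA helicase of the germ plasm and germ cells (chr2L:15061605-15061760, first exon, FBgn0283442). Its value at 4-6 h was 11.54 in Cas9, 8.63 in F3 and 8.87 in M6, and at 6-8 h 11.71 in Cas9, 9.11 in F3 and 8.86 in M6. All 4 tinmDPE values were far below both tinWT values, and F3 and M6 were close to each other. The promoter fell by 2.76 on the log2 scale (SE 0.15, 6.77-fold lower, adjusted p = 0.0319 by limma). At 0-2 h the strains had stood at 11.68, 11.40 and 10.76 and at 2-4 h at 10.83, 9.80 and 9.65 in Cas9, F3 and M6. Both tinmDPE strains were thus lower at 4 to 8 h than at 0-2 h, and Cas9 was near its first level. The neighbouring gene vig (chr2L:15068003-15068155, minus strand) differed by -0.29 (SE 0.21, adjusted p = 0.617 by limma), with its start position in no annotated exon of vig. Other genes of the germ plasm had other values. The translational repressor nos differed by 0.01 at low values of 3.55 to 4.58. The authors had called its TSS in 0 of the 2 tinWT and 1 of the 4 tinmDPE libraries of 4 to 8 h. The symbol nos was not found in the gene annotation searched, so its start position could not be placed in an exon. The gene tud, whose Tudor protein assembles the germ plasm, was higher by 1.23 in 4 of 4 comparisons (adjusted p = 0.148 by limma). Its start position lay in no annotated exon of tud. Of the 8 members in a list of maternal and germ line genes 1 passed and the median difference was 0.15, and whether a transgene contributes to the vas tags was not tested.

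The second is CG9272, an uncharacterized protein gene in the authors' annotation (chr2L:20927762-20927922, minus strand). Its value at 4-6 h was 6.31 in Cas9, 3.64 in F3 and 3.62 in M6, and at 6-8 h 6.27, 3.83 and 3.53 in the same order. The groups were far apart, and the authors had called this TSS in both tinWT libraries of 4 to 8 h and in 0 of the 4 tinmDPE libraries. It fell by 2.64 (SE 0.19, adjusted p = 0.0335 by limma). The tinmDPE mean of 3.65 was under the minimum of 4, so this TSS is a member only through its tinWT mean of 6.29. At 0-2 h it stood at 8.31 in Cas9, 6.32 in F3 and 6.04 in M6. At 2-4 h Cas9 was the lowest, at 4.97 against 5.51 in F3 and 6.14 in M6. The symbol CG9272 was not found in the gene annotation searched, so its start position could not be placed in an exon.

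The third is CG30015, also uncharacterized (chr2R:10874667-10874817, minus strand, first exon). Its value at 4-6 h was 7.73 in Cas9, 10.20 in F3 and 10.57 in M6, and at 6-8 h 8.19 in Cas9, 10.93 in F3 and 10.73 in M6. Both tinmDPE strains were above Cas9 in all 4 windows, at 0-2 h with 8.53 and 9.29 against 6.91 and at 2-4 h with 9.95 and 9.22 against 7.48. The promoter rose by 2.65 (SE 0.16, 6.26-fold, adjusted p = 0.0319 by limma). Other promoter TSSs of the same gene with a mean of at least 4 differed less, that on chr2R:10843950-10844100 by -0.03 (adjusted p = 0.969) and that on chr2R:10844123-10844273 by 0.51 (adjusted p = 0.617 by limma). The calls of vas, CG9272 and CG30015 were kept under 9, 8 and 8 of 18 alternatives, with differences of -2.82 to -2.62, -2.72 to -2.56 and 2.57 to 2.73.

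The other 7 TSSs called are no members. The promoter TSS of l(2)35Be on chr2L:15007157-15007307 was higher by 3.24 and a promoter TSS of CG44774 by 2.35, and that of MESR4 on chr2R:17548181-17548331 was lower by 2.51 (adjusted p = 0.0319, 0.0335 and 0.0319 by limma). The remaining 4 were a TSS in an exon of Moe, the ezrin-radixin-moesin protein that links actin to the membrane, at 3.12, a TSS in an intron of sr, which specifies tendon cells, at -4.33, and intergenic TSSs listed with CG9380 at 3.31 and CG13970 at -2.92.

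**Figure D1:**
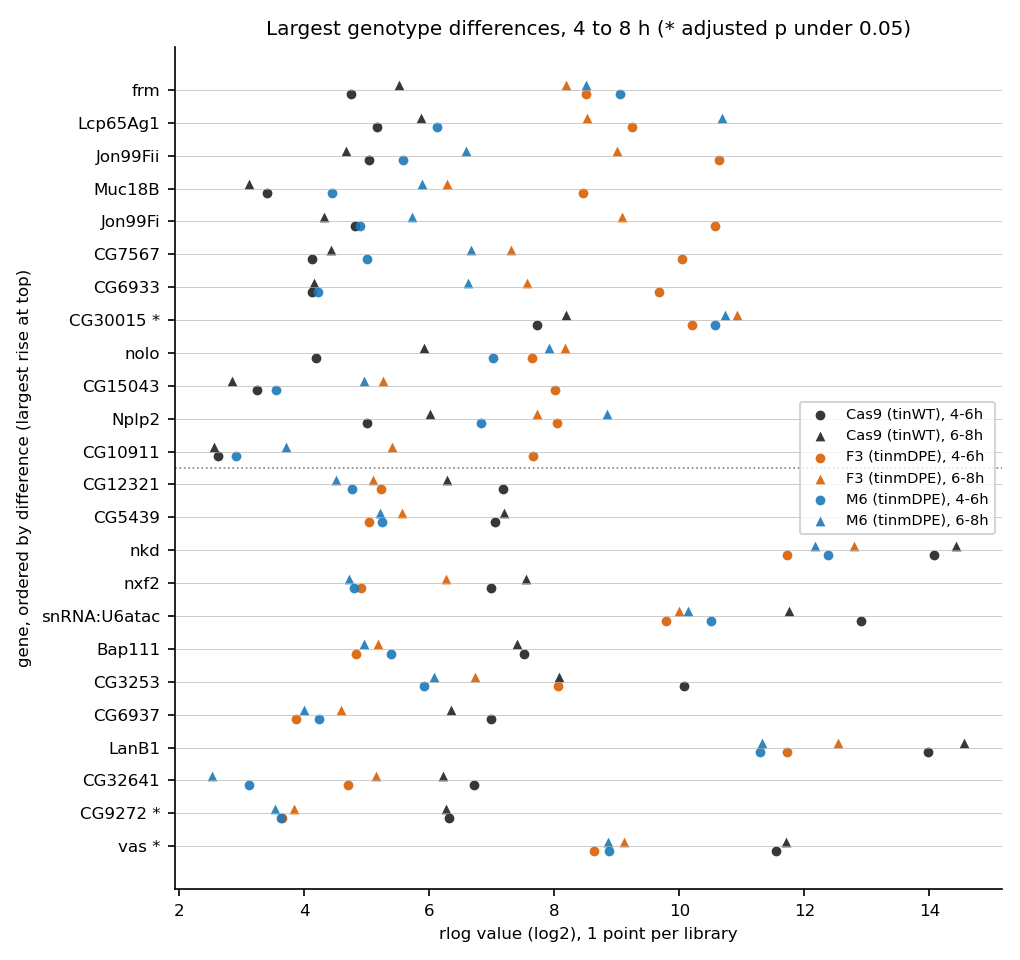
Rlog values (log2, horizontal axis) of the 12 largest positive and 12 largest negative differences among members on the same side in 4 of 4 comparisons, with 1 point per library; colours give the strain and shapes the window. For vas, CG9272 and Bap111 the tinWT points stand apart from those of F3 and M6, which lie close together, while 8 of the upper genes have F3 at 4-6 h far to the right of M6.

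The sizes of the differences were described next, without a test, by counting members that lay on the same side in 4 of 4 comparisons, each setting a tinmDPE library against Cas9 at the same age. Of the 6492 members 1706 were higher (26.3%) and 1719 were lower (26.5%), and the median difference over all members was 0.01, with the 5th and 95th percentiles at -0.84 and 0.98. With a mean difference of at least 1 besides, 283 were higher (4.36%) and 175 were lower (2.7%). Among all 9254 TSSs with a mean of at least 4 the same rule gave 4.26% higher and 3% lower, so the members were close to the background. The minimum of 4 was set on a mean over 6 libraries, 4 of them tinmDPE. Weak promoters high only in tinmDPE therefore passed it more easily than those high only in tinWT, in the members and in this background. At a minimum of 3 the counts were 341 higher and 200 lower, and at a minimum of 5 they were 215 and 162. Of the 458 members past the rule at the minimum of 4, 425 were also called in the test over TSSs with a mean of at least 4, against 1080 of all 6492. The rule and the test used the same 6 libraries, so this overlap follows largely from the choice and is no separate support. A difference of at least 2 was reached by 17 higher and 9 lower members. The higher members had a median difference of 1.54 at 4-6 h and 1.09 at 6-8 h, and the lower ones -1.27 and -1.14. Because both sides were chosen from these 6 libraries, their medians are descriptions.

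**Figure D2:**
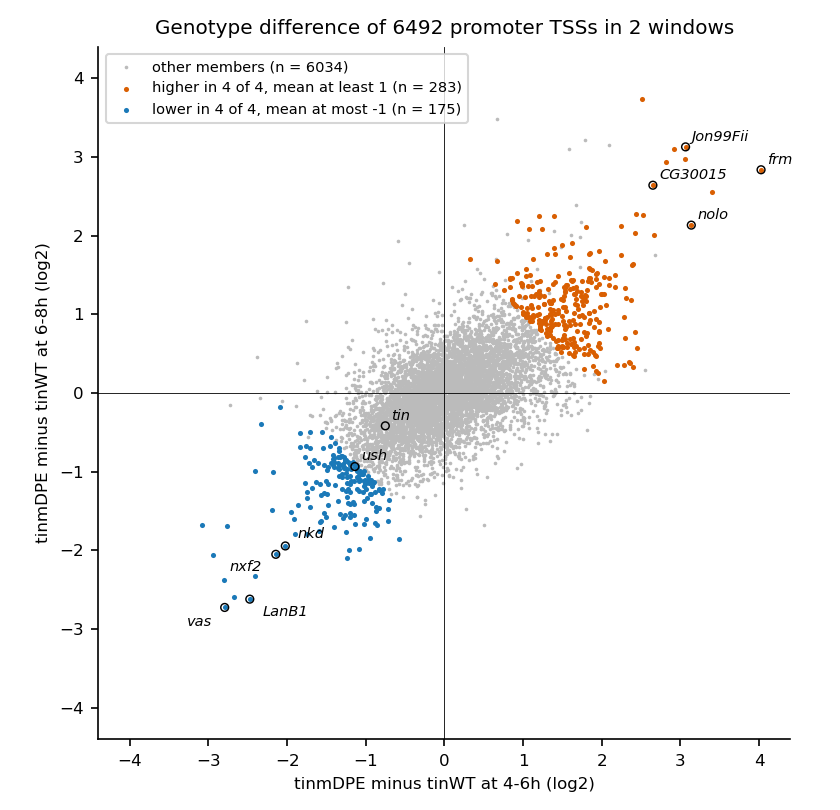
Difference of each of the 6492 members at 4-6 h (horizontal) and at 6-8 h (vertical), tinmDPE minus tinWT in log2; orange and blue points are the 283 and 175 members past the fold rule, and circles mark named genes. The points vas, LanB1, CG30015 and frm lie far from the origin in both windows, and tin lies at -0.75 and -0.42.

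The largest of the lower values outside the called ones belonged to genes of quite different kinds. LanB1, the β chain of laminin in basement membranes (chr2L:7811365-7811515, first exon), stood at 13.98 in Cas9, 11.72 in F3 and 11.29 in M6 at 4-6 h and at 14.56, 12.54 and 11.33 at 6-8 h. Cas9 was highest in both windows, by over 2 log2 units against either strain, and it was also highest at 0-2 and 2-4 h. The mean difference was -2.55 (SE 0.34, adjusted p = 0.0851 by limma over all TSSs and 0.00277 over those with a mean of at least 4). A second promoter TSS of the gene, on chr2L:7814280-7814430, differed by -0.90, lower in 4 of 4 comparisons.

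Bap111, a subunit of the Brahma chromatin remodelling complex, had values of 7.51 and 7.40 in Cas9 at 4-6 and 6-8 h. They were 4.82 and 5.18 in F3 and 5.39 and 4.96 in M6. The groups did not overlap and F3 and M6 lay close together. The difference was -2.37 (SE 0.21, adjusted p = 0.0650 by limma). Naked cuticle (nkd), an antagonist of Wnt signalling, had 14.07 and 14.43 in Cas9, 11.72 and 12.80 in F3, and 12.38 and 12.17 in M6. It differed by -1.98 (SE 0.26, adjusted p = 0.0808), whereas at 2-4 h Cas9 had been the lowest of the strains at 12.02 against 12.58 and 12.44. The export factor nxf2, which acts in silencing of transposons by small RNAs in the ovary, differed by -2.10 (SE 0.41) and overlapped in no window, with 6.99 and 7.55 in Cas9 against 4.72 to 6.27.

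The minor spliceosome RNA U6atac stood at 12.91 and 11.76 in Cas9 and between 9.79 and 10.51 in the 4 tinmDPE libraries. It differed by -2.23 (SE 0.31, adjusted p = 0.0903 by limma). At 2-4 h the order was the opposite, with Cas9 at 10.12 and the tinmDPE strains at 12.46 and 11.94. Whether the tags of this small RNA mark starts of RNA polymerase II was not tested, so its values are not read as a promoter difference. Besides CG9272, the uncharacterized genes among the 12 largest negative differences were CG32641 at -2.59, CG6937 at -2.50, CG3253 at -2.38, CG5439 at -1.85 and CG12321 at -1.84. For CG32641 F3 and M6 were far apart, at 4.70 and 3.12 at 4-6 h and 5.15 and 2.53 at 6-8 h, both below Cas9 at 6.71 and 6.22. With TSSs of a mean of at least 4 tested, each of these 5 had an adjusted p between 0.00184 and 0.0289 by limma. The TSS of CG3253 had values of 10.07 and 8.08 in Cas9 at 4-6 and 6-8 h. The authors had nevertheless called it in 0 of the 2 tinWT and 1 of the 4 tinmDPE libraries of 4 to 8 h. The start positions of CG3253 and CG6937 lay in no annotated exon of those genes.

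Among the higher members frm (farmer in the annotation; chr3L:5551076-5551226, first exon) had the largest difference. Its values at 4-6 h were 4.75 in Cas9, 8.51 in F3 and 9.05 in M6, and at 6-8 h 5.51, 8.19 and 8.51. The tinmDPE values were above Cas9 in both windows, and they were above it at 0-2 h and 2-4 h as well. The mean difference was 3.43 (SE 0.31, 10.8-fold, adjusted p = 0.0653 by limma over all TSSs and 0.000429 over those with a mean of at least 4). The gene nolo, whose product resembles ADAMTS proteins of the extracellular matrix, stood at 4.19 and 5.91 in Cas9, 7.64 and 8.17 in F3, and 7.02 and 7.92 in M6. Its difference was 2.64 (SE 0.30, adjusted p = 0.0692 by limma). Downstream on the same strand, a TSS in an exon differed by -0.40 and a TSS in an intron by -0.87, each at a low mean of 3.44. Another intronic TSS, at a mean of 7.78, differed by -0.68, but it lies on the opposite strand and is no start of nolo. Nplp2, a neuropeptide-like precursor, had 5.00 and 6.01 in Cas9, 8.05 and 7.73 in F3, and 6.83 and 8.84 in M6, a difference of 2.36 (SE 0.43, adjusted p = 0.127).

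The other 8 of the 12 largest positive differences were unequal between the tinmDPE strains, with F3 at least 2 above M6 at 4-6 h. They were the Jonah serine proteases Jon99Fii and Jon99Fi, the mucin Muc18B, the larval cuticle gene Lcp65Ag1 and the uncharacterized CG7567, CG6933, CG15043 and CG10911. Jon99Fii stood at 5.04 in Cas9, 10.64 in F3 and 5.58 in M6 at 4-6 h and at 4.66, 9.0 and 6.58 at 6-8 h. Its difference of 3.10 had an SE of 1.39 (adjusted p = 0.435 by limma). The neighbouring copy Jon99Fi had a difference of 3.01 (SE 1.63), and reads of such close copies may have been split between them. Over the 8 genes the median value at 4-6 h was 4.12 in Cas9, 9.47 in F3 and 4.67 in M6, and at 6-8 h 4.23, 7.44 and 6.23. At 4-6 h M6 was near Cas9, while its gap to F3 follows from the choice of these genes by that gap. The same genes were high in the tinmDPE libraries of 0-2 h, with medians of 8.95 in F3 and 10.94 in M6 against 4.74 in Cas9. Their median difference of 2.99 was 1.65 without the library of F3 at 4-6 h. A smaller value there follows largely from choosing genes high in that library. The part of that library in the result was not tested beyond this value.

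Muscle structure genes were high in some of the same libraries. Of 19 members of a sarcomere list, which holds the myosin, actin, troponin and titin-like genes of the contractile apparatus, 0 passed, 3 were higher and 3 lower in 4 of 4 comparisons, and the median difference was 0.90. Their median value was 5.49 in Cas9, 7.42 in F3 and 4.78 in M6 at 4-6 h and 5.90, 6.23 and 6.90 at 6-8 h. Myosin heavy chain (Mhc) had 5.49 in Cas9, 8.2 in F3 and 4.1 in M6 at 4-6 h, so that M6 lay below and F3 above tinWT. Without the library of F3 at 4-6 h the list's median was 0.07. Paramyosin (Prm) and the muscle actin Act57B were past the fold rule at 1.44 and 1.37 (adjusted p = 0.308 and 0.567 by limma). The difference of Act57B was 0.61 without the library of F3 at 4-6 h and 0.38 without that of Cas9 at 4-6 h.

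**Figure D3:**
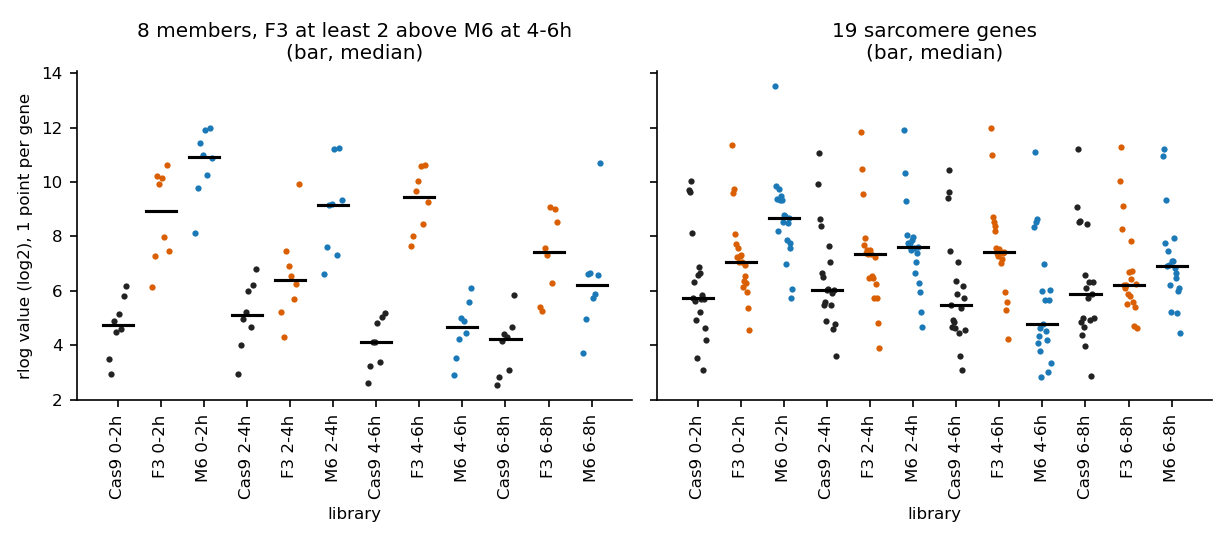
Rlog values (log2, vertical axis) in each of the 12 libraries (horizontal axis), with 1 point per gene and a bar at the median. The left panel shows the 8 members chosen for F3 at least 2 above M6 at 4-6 h, with medians of 9.47 in F3 and 4.67 in M6 in that window. The right panel shows the 19 sarcomere members, with medians of 7.42 and 4.78.

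Across all members F3 and M6 differed less from each other than either did from Cas9. The SD over members of F3 minus M6 was 0.523 at 4-6 h and 0.393 at 6-8 h. The SD of Cas9 minus F3 was 0.810 and 0.527, and that of Cas9 minus M6 was 0.694 and 0.651. Cas9 at 4-6 h was also the library with the fewest tags, and the part of depth in these spreads was not tested. F3 and M6 were at least 1 apart at 3.28% of members at 4-6 h and 1.82% at 6-8 h, against 17.9% and 5.27% for Cas9 and F3 and 13.6% and 10.7% for Cas9 and M6. In the test of F3 against M6, 0 of 45839 TSSs were called (0%; limma, Benjamini-Hochberg), 2069 had an unadjusted p under 0.05, 265 of them members, and the lowest adjusted p of a member was 0.098. The largest member differences were 4.64 for the serine protease Jon65Ai and 4.51 for Jon99Fi, higher in F3, and -1.70 for Atxn7, a subunit gene of the SAGA coactivator, and -1.51 for the snRNA U11, higher in M6.

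The windows were then compared. Within 4-6 h 316 TSSs were called (0.689%; limma), 311 of them lower in tinmDPE, and 3 members were among the 316. Fitted over TSSs with a mean of at least 4, 780 were called, 487 higher and 293 lower, with 613 members. There were 0 calls above the 25th percentile of the mean, without a trend in the variance prior, and without either tinmDPE library of 6-8 h. Within 6-8 h 131 were called (0.286%), all of them lower in that fit, with 0 members. Over TSSs with a mean of at least 4 there were 37, of which 21 were higher and 16 lower and 19 were members, and with median centring, above the 25th percentile, without a trend and without either tinmDPE library of 6-8 h there were 0. The change of the difference between the windows was called at 163 TSSs (0.356%), with 0 members, and 509 members had an unadjusted p under 0.05. The 163 became 0 over TSSs with a mean of at least 4, above the 25th percentile, without a trend and without either tinmDPE library of 6-8 h. The fits over TSSs with a mean of at least 4 tested 9254 TSSs, of which 6492 were members. Most TSSs tested there were thus members, and the counts of members called are no result about the members. Each window had 1 tinWT library, and these tests assume that it varies as F3 and M6 do around their mean. Some members past the fold rule differed mostly at 4-6 h. Prm differed by 1.97 at 4-6 h and 0.90 at 6-8 h, Act57B by 2.36 and 0.38, and nerfin-1 by 1.96 and 0.77, while CG30015 differed by 2.65 and 2.64.

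The libraries of 0-2 and 2-4 h had no part in choosing the members past the fold rule and gave different pictures in the 2 windows. At 0-2 h both tinmDPE strains were above Cas9 at 191 of the 283 higher members (67.5%, against 30.8% of all members), and both were below it at 132 of the 175 lower members (75.4%, against 46.8%). At 2-4 h the order was mostly the opposite. Both tinmDPE strains were then above Cas9 at 80 of the 283 (28.3%, against 42.2% of all members) and below it at 160 (56.5%, against 39.4%). Among the 175 lower members both were below at 48 (27.4%) and above at 94 (53.7%). On 1 side in all 4 comparisons of 0 to 4 h were 65 of the higher members (23%, against 11.1% of all members) and 30 of the lower (17.1%, against 15.6%). CG30015, frm, LanB1, Bap111 and vas were among these, whereas nkd, nerfin-1 and U6atac were not.

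The neuronal factor nerfin-1 (chr3L:909048-909198), a zinc-finger gene of newly born neurons, shows the change of order. At 2-4 h it stood at 8.70 in Cas9, 6.77 in F3 and 7.91 in M6, and at 4-6 h at 6.65, 8.56 and 8.66. Cas9 was thus lower in the later of these windows and F3 and M6 were higher, and at 6-8 h it was 8.17, 8.74 and 9.15. The axon guidance gene comm had the same order, with 8.55, 6.44 and 7.71 at 2-4 h and 6.68, 8.93 and 8.62 at 4-6 h in Cas9, F3 and M6. Its difference at 4 to 8 h was 1.73 (SE 0.22, adjusted p = 0.0795 by limma). The POU factor vvl of the trachea and brain had 9.93 in Cas9 at 2-4 h against 8.1 and 8.93, and 8.36 at 4-6 h against 10.19 and 9.86. How far the embryos of a window differed in age between strains was not tested.

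**Figure D4:**
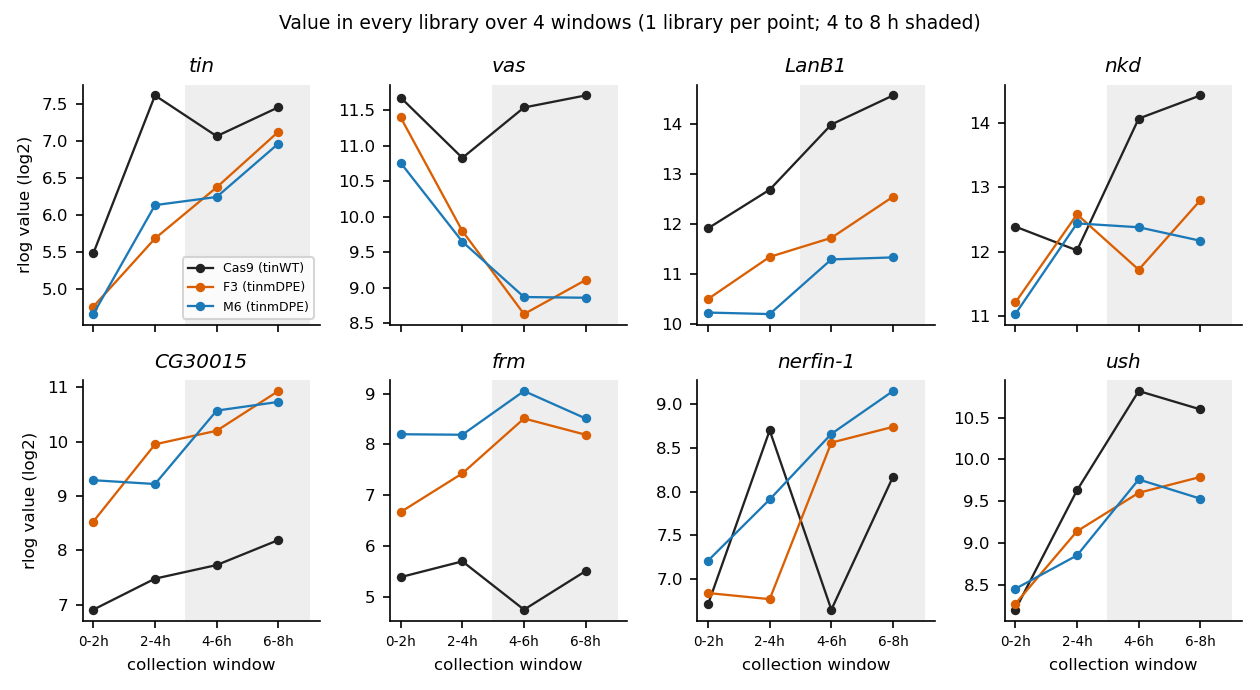
Rlog value (log2, vertical axis) of 8 genes in each strain over the 4 windows (horizontal axis), 1 library per point, with 4 to 8 h shaded. In tin, vas, LanB1 and ush the black line of Cas9 lies above both tinmDPE strains from 2-4 h on, in CG30015 and frm below them throughout, and in nerfin-1 and nkd the order changes between 2-4 h and 4-6 h.

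Change with time was also compared using libraries that a window's difference did not use. Members were grouped by a mean difference of at least 1 in a window, with both tinmDPE strains on the same side of Cas9. The 565 members higher at 4-6 h by this rule had a median change from 2-4 to 6-8 h of 0.77 in tinmDPE and -0.32 in tinWT. The 346 members lower by at least 1 at 4-6 h had -0.45 in tinmDPE and 0.74 in tinWT, and all members had 0.07 and 0.15. The 253 members higher by at least 1 at 6-8 h had a median change from 2-4 to 4-6 h of 0.28 in tinmDPE and -0.95 in tinWT. The 186 members lower by at least 1 at 6-8 h had -0.03 and 0.88, and all members had 0.03 and 0.04. The median changes of each of these 4 groups thus had opposite signs in the 2 genotypes, with that of tinmDPE close to 0 for the 186.

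The genes of the dorsal mesoderm and heart, where tin acts, were mixed in direction. Of 16 list genes with a promoter TSS 13 were members, of which 0 passed, 4 were higher and 5 lower in 4 of 4 comparisons, and the median difference was -0.16 against 0.01 over all members. Only u-shaped (ush), a partner of GATA factors, was past the fold rule (chr2L:523661-523811). It stood at 10.82 in Cas9, 9.60 in F3 and 9.76 in M6 at 4-6 h and at 10.60, 9.79 and 9.53 at 6-8 h. The groups did not overlap and the difference was -1.04 (SE 0.15, adjusted p = 0.0959 by limma over all TSSs and 0.00683 over those with a mean of at least 4).

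The T-box genes Doc1 and Doc2 and the GATA gene pnr, which act with tin in the heart field, differed by -0.48, -0.32 and -0.49, each lower in 4 of 4 comparisons. Doc3 differed by 0.67, the T-box gene mid by 0.65, the LIM-homeobox gene tup by 0.63 and the homeobox gene eve by 0.54, each higher in 4 of 4. Hand, a later heart factor, differed by -0.25, with its start position in no annotated exon of the gene. The difference of svp was 0.38, and the libraries of Hand and svp did not keep 1 side. The adjusted p-values of these genes lay between 0.209 and 0.644 by limma over all TSSs. Over those with a mean of at least 4, tup was also called (adjusted p = 0.0393 by limma), so that 1 of the 13 was higher and 1 lower there. Of all members 8.69% were called higher and 7.95% lower in that test.

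The other mesoderm lists were likewise small in their differences. Of 12 trunk mesoderm members 5 were higher and 1 lower in 4 of 4 comparisons, with a median of 0.19. Mef2, the general muscle differentiation factor, differed by 0.78 (7.20 in Cas9 against 8.02 and 8.14 at 4-6 h, 8.4 against 9.24 and 8.90 at 6-8 h; adjusted p = 0.158 by limma), and twi, which sets up the mesoderm, by -0.10. Of 8 visceral mesoderm members 2 were higher and 1 lower, with a median of 0.00. The receptor tyrosine kinase Alk of the founder cells of gut muscle was higher by 1.14 and the forkhead gene bin lower by 0.74. The NK gene bap, which lies beside tin and is known as its target, had low values of 3.31 in Cas9, 4.4 in F3 and 4.08 in M6 at 4-6 h and 4.66, 4.36 and 4.26 at 6-8 h. Its tinmDPE values were thus above tinWT in the first window and below it in the second.

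Of 10 muscle identity members 3 were higher and 2 lower, with a median of 0.22. The wing and muscle cofactor vg was higher by 1.47 (adjusted p = 0.146 by limma). The NK gene slou, another gene of the tin cluster, was lower by 0.83 with 8.70 in Cas9 against 7.96 and 8.2 at 4-6 h and 9.38 against 8.62 and 8.04 at 6-8 h. Of 11 myoblast fusion members 5 were higher and 2 lower, with a median of 0.27. Of 3 members in a list of genes around tin (tin, bap and slou) 2 were lower, and the median of -0.58 is the value of tin itself. Besides tin, slou was lower as given above and bap differed by 0.29 without keeping 1 side. In the test over TSSs with a mean of at least 4, 2 of the 12 trunk, 1 of the 8 visceral, 3 of the 10 muscle identity and 3 of the 11 fusion members were called higher. In it 1 muscle identity member was called lower. Of all members 8.69% were called higher and 7.95% lower there, and with so few members per list these counts are descriptions. In bulk embryos fewer cells of a type and less RNA per cell cannot be told apart.

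**Figure D5:**
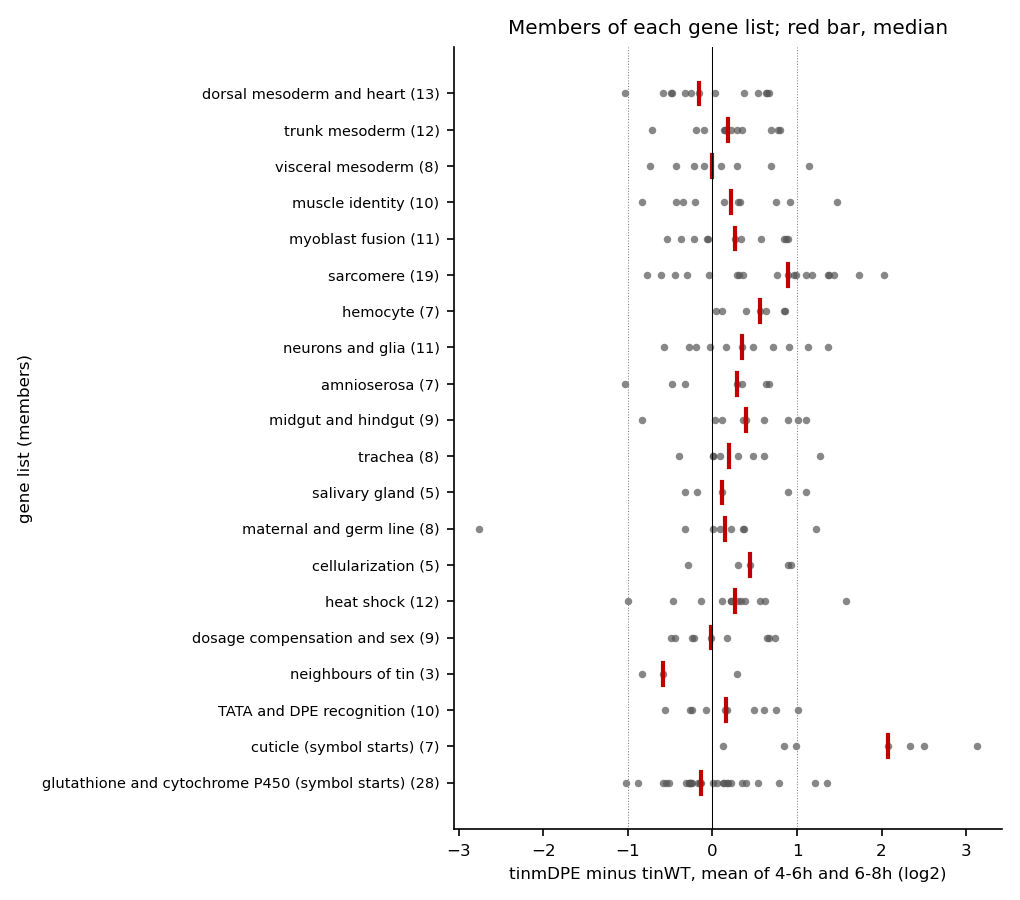
Difference tinmDPE minus tinWT (log2, horizontal axis) of the members of each gene list (vertical axis, number of members in brackets), with a red bar at the median and dotted lines at -1 and 1. The heart list is spread around 0, vas stands alone at -2.76 in the germ line list, and the cuticle and sarcomere medians lie at 2.08 and 0.90.

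The lists of other tissues were counted in the same way. Of 11 neuron and glia members 5 were higher and 1 lower, with a median of 0.35, and nerfin-1 and the glial regulator loco were past the fold rule at 1.37 and 1.14. In the test over TSSs with a mean of at least 4, 4 of the 11 were called higher (repo, elav, nerfin-1 and loco) and 0 lower, where 8.69% of all members were called higher and 7.95% lower. Of 9 midgut and hindgut members 5 were higher and 1 lower, with a median of 0.39. In that test 4 of the 9 were called higher, namely bowl, cad, fkh and drm. With so few members, and with the trunk, visceral, muscle identity and fusion lists also called mostly higher there, these counts are descriptions. The forkhead factor fkh, needed for gut and salivary gland, differed by 1.1 with 7.79 and 7.99 in Cas9 against 8.87 to 9.12 in tinmDPE. Of 7 hemocyte members 5 were higher and 0 lower, with a median of 0.56, and the collagen IV genes vkg and Col4a1, which share a divergent promoter region, each differed by 0.85.

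For 8 tracheal members the median was 0.20, for 5 salivary gland members 0.11, for 7 amnioserosa members 0.29 and for 5 cellularization members 0.44, with 0 passed in each. Across 12 heat shock members it was 0.26, and the small heat shock gene Hsp22 was higher by 1.58. Of 9 genes of dosage compensation and sex determination 4 were higher and 3 lower (median -0.01). Across 10 factors that recognise or act on TATA and DPE promoters 4 were higher and 1 lower, with a median of 0.16, and Tbp, the TATA-binding protein, was higher by 1.01 (adjusted p = 0.154 by limma). Of 7 cuticle members 3 were higher and 0 lower, with a median of 2.08 and of 1.24 without F3 at 4-6 h. For 28 glutathione transferase and cytochrome P450 members the median was -0.14. Genes of the adult ovary had 1 member of 14 genes, at -0.96, and immune peptides 0 of 23.

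Housekeeping families had medians near 0. The 80 ribosomal protein members, a group formed by symbol after values were seen, had a median of 0.02 with 21 higher and 19 lower, and 47 mitochondrial ribosomal protein members also had 0.02. For 31 proteasome members the median was 0.12, and for 152 long noncoding RNA members it was -0.08. The spliceosomal snRNAs, with 20 members, had -0.36, with 3 higher and 7 lower.

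The members past the fold rule were spread over the chromosomes. Their share was 5.08% higher and 2.99% lower on X, 4.48% and 3.61% on 2L, 4.36% and 2.78% on 2R, 4.78% and 2.27% on 3L, and 3.48% and 2.0% on 3R, the arm of tin. On chromosome 4, with 71 members, it was 2.82% and 4.23%. Among 169 higher members with another member within 5000 bp, 13 had a neighbour that was also higher (7.69%, against 6.69% of members not past the rule). Among 92 lower members 8 had a lower neighbour (8.70%, against 3.78%). Another TSS of the same gene with a mean of at least 4 existed for 74 of the higher and 50 of the lower members. It was past the fold rule in the same direction in 6 and 1 of these genes and in the opposite direction in 2 and 3.

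The core promoter words were counted at the start of every member. The initiator was found at 21.2% of all members, at 35% of the 283 higher and at 33.1% of the 175 lower members. An initiator with a DPE was found at 7.01% of all, 8.13% of the higher and 13.7% of the lower members, which is 23 and 24 TSSs. TATAAA or TATATA, starting from position -33 to -28, was found at 4.05%, 10.2% and 4.57%. Only the gene's strand was searched, no word of one kind overlaps another at these positions, and a match is a description of letters.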

How the data were processed

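The authors' deposited values are rlog values on a log2 scale for merged TSSs in 12 csRNA libraries, made with HOMER's annotatePeaks.pl on dm6 from tags on the TSS's strand with a fragment length of 1, per the file headers. STAR 2.7.10a, edgeR and HOMER are named without a role in the submitters' processing notes, and the caller of the TSS lists is not given in the sources used here. Rlog shrinks low values, so changes of weak TSSs are understated. The authors' deposited merged list gives the entries called in each library, and 0 columns of values were left out.

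limma 3.58.1 (R 4.3.3) was fitted over the 45839 TSSs (lmFit, then eBayes with trend, Benjamini-Hochberg, threshold 0.05). The main model held window and genotype over 6 libraries. A model with strain in place of genotype gave F3 against M6, and group means gave the differences by window. Simulated shifts of 2 in 200 TSSs were recovered in 186 cases with 14 false calls when 45839 TSSs were tested. When 9254 were tested they were recovered in 199 with 18 false calls. The simulated noise was independent for each TSS and library, with the fitted variances and no strain or library effect. These counts therefore check the code and do not show the power of the test on these libraries. Words were searched in the RefSeq genome with Python 3.11.15.

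The members, gene lists and tests were chosen with earlier results of these data known. Genes named are tin, the 12 largest differences each way (those past the threshold first, then by size in 4 of 4 comparisons), the 2 largest differences of F3 and M6 each way, and list members past the fold rule. Further genes, such as comm and members of the lists under the fold rule, were named after their values were seen. Alternatives were other scalings, filters and variance priors, strain as unit or correlated block, all 12 libraries, and leaving out libraries, strains and windows. The matched input libraries were not used here.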

Additional observations from a re-analysis of the deposited data

Results flagged for a closer look

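The change of the genotype difference from 4-6 h to 6-8 h, tested as an interaction by limma, was called at 163 TSSs, none of them a member, and at 0 TSSs over those with a mean of at least 4, above the 25th percentile and without a trend. Each window had 1 tinWT library, whose spread is assumed to be that of F3 and M6. Without a test of their own that passed, 4 of the named members had both tinmDPE libraries on opposite sides of Cas9 in the 2 windows. The change of the difference from 4-6 h to 6-8 h was -0.66 for vig, -0.88 for htl, -1.27 for bap and -1.12 for sna. In each the tinmDPE libraries were above Cas9 at 4-6 h and below it at 6-8 h. Over all 6492 members 504 showed this order and 482 the reverse.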

How the results depend on the processing

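The number of calls depended on the processing, and the cause was not tested. The filters on low values changed both the TSSs adjusted over and the variance prior. Fitting strain as a correlated block gave a negative estimated correlation between libraries of 1 strain, at -0.26. The higher count of that fit, given below, is therefore no sign of stronger evidence once strain is allowed for. For the genotype difference at 4 to 8 h (10 TSSs, 3 members), limma called 1417 TSSs and 1080 members when only TSSs with a mean of at least 4 were tested, and 581 and 342 above the 25th percentile. It called 0 of both with quantile normalization, without a trend in the variance prior, with strain means as units and without window 6-8h. It called 407 and 237 with strain as a correlated block, 546 and 100 with all 12 libraries, 1827 and 691 without F3, 1957 and 790 without M6, and 408 and 29 without window 4-6h. With 1 library left out the counts ranged from 0 to 318 TSSs and from 0 to 3 members. The counts at an unadjusted p under 0.05 were 3034 to 10274 TSSs.

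For F3 against M6 (0 TSSs) the counts were 5 TSSs and 1 member with median centring, 12 and 7 with a mean of at least 4, 25 and 7 above the 25th percentile, and 0 to 1298 and 0 to 103 with 1 library left out. Within 4-6 h (316 TSSs, 3 members) they were 524 and 10 with quantile normalization, 780 and 613 with a mean of at least 4, 0 and 0 both above the 25th percentile and without a trend, 6 members with median centring, 22 members with all 12 libraries, and 0 to 2030 TSSs and 0 to 134 members with 1 library left out. Within 6-8 h (131 TSSs, 0 members) they were 304 and 1 with quantile normalization, 37 and 19 with a mean of at least 4, 2 members with all 12 libraries, 0 TSSs with median centring, above the 25th percentile and without a trend, and 0 to 216 TSSs and 0 to 4 members with 1 library left out. The interaction (163 TSSs) gave 485 with quantile normalization, 105 with median centring, 0 with a mean of at least 4, above the 25th percentile and without a trend, and 0 to 1395 TSSs and 0 to 4 members with 1 library left out. Leaving out single libraries for these 4 results was added after the data were seen.

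The fold rule gave 283 higher and 175 lower members. These were 1040 and 934 at a fold of 0.5, 17 and 9 at 2, and 565 and 346 without window 6-8h, which leaves 2 comparisons. With 1 library left out they ranged from 253 to 565 and from 153 to 346, with the highest counts where Cas9 at 6-8 h was left out. The tin difference was negative under all 13 alternatives, from -0.75 to -0.42 with 1 library left out and -0.25 over the mean of its 3 TSSs. Of 83 named genes 68 kept their direction under all 18 alternatives. No paired analysis was possible because the strain that numbers the replicates also sets the genotype; the window was the block. Each window had 1 tinWT library, which limits every comparison.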
